A study of Mus musculus with 117 samples.

Results

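The genes described here are Plau and Plaur, which encode urokinase-type plasminogen activator and its receptor, and 7 matrix metalloproteinases: Mmp2, Mmp3, Mmp7, Mmp10, Mmp12, Mmp13 and Mmp14. They were chosen by name as parts of the proteolytic system that acts on the matrix around cells. All 9 were measured, among 17097 genes for which a probe set was assigned to a single gene symbol. Where a gene had several probe sets, the one with the highest mean signal in the 117 arrays was read. Values are log2 signals, so a difference of 1 is a 2-fold change, and levels of different genes are not compared because probe sets differ in brightness.

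Urokinase is a secreted serine protease that binds its receptor on the cell surface and converts plasminogen to plasmin. Plasmin cleaves fibrin and matrix proteins and can activate metalloproteinase proenzymes. Among the metalloproteinases, Mmp14 sits in the plasma membrane and activates the secreted gelatinase Mmp2, Mmp3 and Mmp10 are stromelysins, Mmp7 (matrilysin) is made mainly by glandular epithelia, Mmp12 is the elastase of macrophages, and Mmp13 is a collagenase that cleaves fibrillar collagen. Tissue inhibitors of metalloproteinases, the Timp proteins, block the active enzymes. In tumours these proteases are known as products of fibroblasts, macrophages and tumour cells alike.

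RNA was taken from C57BL/6 mice. Normal prostate, lung, intestine, liver, stomach and uterus were dissociated to single cells and separated with magnetic beads against Prom1 (prominin-1), a membrane glycoprotein used as a stem and progenitor cell marker. This gave 51 sorted samples in 12 groups, with 3 Prom1-positive and 5 Prom1-negative samples of prostate, 3 and 7 of lung, 3 and 5 of intestine, 4 and 7 of liver, 3 and 4 of stomach, and 4 and 3 of uterus. The other 66 samples were tumours frozen as pieces of tissue: 10 prostatic, 11 gastric and 9 uterine adenocarcinomas, 14 bronchial papillary adenomas, 13 hepatocellular carcinomas, 3 B-cell lymphomas and 6 skin squamous cell carcinomas. RNA was extracted from both kinds of sample with the PicoPure kit. Tumours and sorted cells differ in disease and in handling, so tumour state and dissociation cannot be told apart. The series speaks of conditional Prom1 mutants that developed tumours, but the labels used here give no genotype, age or driver allele for any sample. Nor do they tie samples to animals, so a p-value here reflects the spread among samples, which may be partly technical. In bulk samples, fewer cells of a type and less RNA per cell cannot be told apart.

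The array medians lay between 3.63 and 4.01, and a signal below the median of its own array is called dim here, because it may be background. Of the 117 arrays, 6 had an upper quartile below 6, and these 6 were sorted samples. Most were Prom1-positive: lung sample 4 (5.85), liver samples 2 (5.964) and 3 (5.975), and stomach samples 2 (5.622) and 3 (5.949). The other was a Prom1-negative stomach sample (5.051). Its median correlation with its own group, 0.709, was the lowest of the 117 arrays. Low upper quartiles thus fell mainly on the Prom1-positive side of the sort, and often on stomach. Prom1 itself was higher in the Prom1-positive than in the Prom1-negative samples of prostate (log2 difference 1.76, adjusted p = 0.00244), stomach (1.65, 0.0189) and uterus (1.46, 0.0173). In intestine the difference was 0.53, in liver 0.23 and in lung 0.01, and none of these passed the test, so the fractions of those tissues rest on their labels. Sorted samples carried the markers of their own organ. Among the tumours, 5 measured prostate epithelium markers averaged 12.82 to 13.29 in sorted prostate but had a median of 5.32 in the prostatic adenocarcinomas, with only tumours 9 (11.25) and 10 (9.75) above the rest. The lung epithelium list averaged 9.42 in hepatocellular carcinoma 1 and 8.27 in hepatocellular carcinoma 8 (group median 3.38), and the hepatocyte list 10.57 in uterine adenocarcinoma 6 (group median 2.78). Results that change without these 3 tumours are given with and without them. Of 14 genes listed for their response to tissue dissociation, such as Fos, Jun and Egr1, 12 were measured. Their mean level ran from 7.81 to 11.91 in sorted samples and from 6.00 to 8.94 in tumours, and its part in the differences between tumours and sorted cells was not tested.

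In normal cells 8 of 9 differed among the 6 tissues at an adjusted p below 0.05, as did 90.1% of all genes tested, and among the 7 tumour types 9 of 9 differed, against 95.1% of all genes. Tumours differed from the sorted cells of their organ in 27 of 45 gene and organ pairs (42.8% of all such pairs), and the Prom1 sort separated 7 of 54 gene and tissue pairs (7.62%). The counts among normal tissues and among tumour types lie near their backgrounds and mark nothing particular to these genes.

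**Figure D1:**
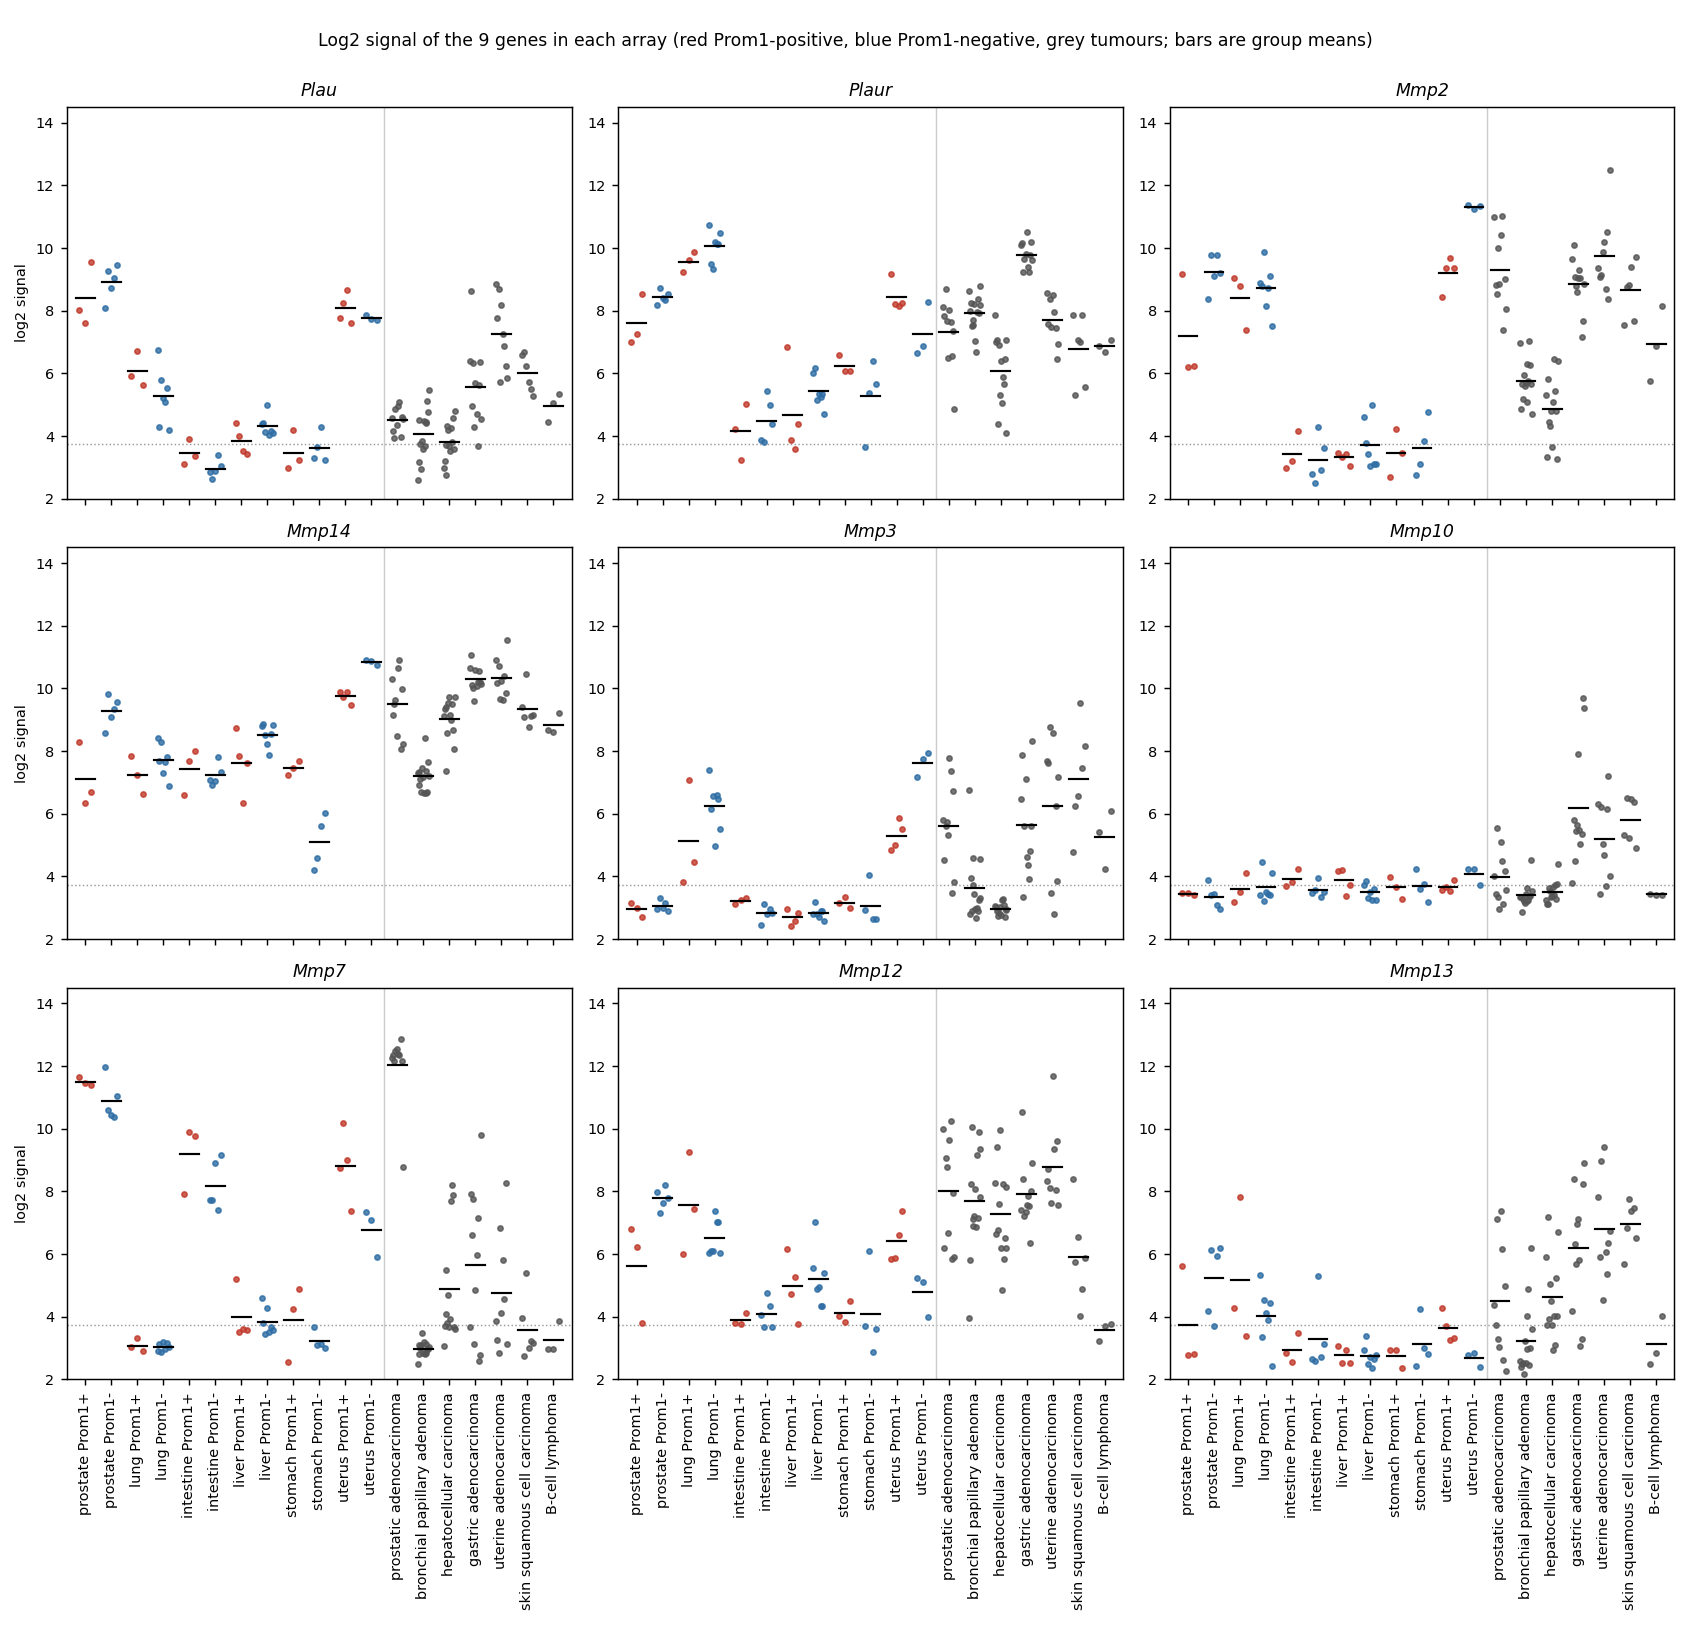
Log2 signal of Plau, Plaur and 7 metalloproteinases in every sample, 1 panel a gene, with the 19 groups on the horizontal axis (red, Prom1-positive; blue, Prom1-negative; grey, tumours), black bars at group means and a dotted line at the median of the array medians. Mmp7 stands highest in the prostate groups and prostatic adenocarcinomas, and Mmp10 rises above the dotted line in gastric, uterine and skin tumours but hardly in any sorted group.

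Plau was highest in sorted prostate and uterus. The 3 Prom1-positive prostate samples read 8.02, 7.61 and 9.57 and the 5 Prom1-negative ones lay between 8.07 and 9.46 with a median of 9.06, while sorted uterus ran from 7.62 to 8.65 over both fractions. Sorted intestine, liver and stomach lay near the dim range, with group means from 2.97 to 4.32. Among tumours the uterine adenocarcinomas were highest (5.71, median 7.27, highest 8.86) and the hepatocellular carcinomas lowest, with a mean of 3.81 ± 0.61 (SD, n = 13). All 18 neighbouring groups in the order of means overlapped in their samples.

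Plaur, the receptor, followed another order and was highest in lung and in gastric tumours. Lung Prom1-positive samples read 9.22, 9.61 and 9.88, Prom1-negative lung ran from 9.33 to 10.74 with a median of 10.14, and the 11 gastric adenocarcinomas from 9.23 to 10.5 with a median of 9.77. These 3 groups overlapped each other, and the lowest of the lung Prom1-positive samples was above every sample of the next group in the order, Prom1-negative prostate, whose mean was 8.44 ± 0.21 (SD, n = 5). Intestine was lowest, with means of 4.16 and 4.50.

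Mmp2 and its activator Mmp14 were both highest in Prom1-negative uterus. Mmp2 read 11.37, 11.24 and 11.33 there and Mmp14 read 10.92, 10.87 and 10.73. Mmp2 was dim in all 4 Prom1-positive liver samples and had group means from 3.23 to 3.73 in intestine, liver and stomach. Mmp14 was above the array median in every sorted sample, and its lowest group was Prom1-negative stomach, with 4.21, 4.60, 5.62 and 6.01.

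Of the stromelysins, Mmp3 was dim in all 8 sorted prostate samples and in all 13 hepatocellular carcinomas, and was highest in Prom1-negative uterus, with 7.17, 7.74 and 7.92. Mmp10 was near the floor in normal cells, where group means ran only from 3.36 to 4.07 and no difference among tissues passed the test (adjusted p = 0.26). Mmp7 had the widest range. It was highest in the prostatic adenocarcinomas (8.77, median 12.35, highest 12.88) and in sorted prostate, and it was dim in all 10 sorted lung samples and in all 14 bronchial papillary adenomas. Sorted prostate ran from 10.38 to 11.98, above every sample of intestine and uterus, of which the highest read 10.19.

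Mmp12 and Mmp13 had their highest group means in tumours. Mmp12 was highest in uterine adenocarcinomas (7.57, median 8.34, highest 11.69) and lowest in the lymphomas (3.24, 3.71 and 3.78). Mmp13 was dim in all 11 sorted liver samples and highest in skin squamous cell carcinomas (5.70, median 7.10, highest 7.77). All 18 neighbouring groups overlapped for both genes.

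By Pearson correlation of the 19 group means over 14654 other genes, Plau was most like Csf3 (r = 0.947), which encodes a granulocyte growth factor, Adamts4 (0.907) and Selp (0.894). Mmp2 was most like Cdh11 (0.975), Fstl1 (0.969) and the collagen gene Col5a1 (0.965), the closest matches of the 9 genes. For Plaur the list was Cdk14 (0.910), Fkbp1b (0.908) and Mgp (0.906). Mmp14 was most like Cdc27 (0.893), Adamts12 (0.863) and Spin1 (0.860), and Mmp3 like Neto2 (0.906), Chst11 (0.885) and Tpm2 (0.873). Mmp7 matched Mycl (0.859), Slc30a2 (0.859) and Ceacam1 (0.847), while Mmp10 matched Tnfrsf23 (0.933), Pbp2 (0.930) and Prl2c2 (0.930). Mmp12 was most like Gas8 (0.884), Ccn2 (0.880) and Flot2 (0.842), and Mmp13 like Foxc2 (0.886), Col8a1 (0.879) and Plec (0.857). These are descriptions over 19 points whose means share the same arrays.

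Mmp3, Mmp7, Mmp10, Mmp12 and Mmp13 lie in 1 cluster on mouse chromosome 9, where the RefSeq gene table of assembly GRCm38.p6 lists 10 metalloproteinase genes in the order Mmp13, Mmp12, Mmp1b, Mmp3, Mmp1a, Mmp10, Mmp8, Mmp27, Mmp20 and Mmp7. Promoter sequences from RefSeq (GRCm38.p6) were matched by symbol for 7 of the 9 genes, with 2 start sites each for Mmp7 and Mmp12. The 100 bases before the start are shown for 6 promoters that hold the AP-1 motif TGAGTCA, which reads TGACTCA on the other strand, because AP-1 is the transcription factor through which these genes are known to respond to growth factors and stress. All are on the plus strand and written 5′ to 3′. Capitals mark the AP-1 motif and, on the gene's strand, a TATA box (TATAAA).
Mmp3, chr9:7445722-7445821: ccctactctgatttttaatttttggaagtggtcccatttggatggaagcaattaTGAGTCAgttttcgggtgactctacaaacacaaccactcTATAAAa
Mmp10, chr9:7502242-7502341: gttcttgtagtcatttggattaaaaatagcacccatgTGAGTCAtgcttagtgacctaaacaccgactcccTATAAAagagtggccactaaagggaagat
Mmp13, chr9:7272414-7272513: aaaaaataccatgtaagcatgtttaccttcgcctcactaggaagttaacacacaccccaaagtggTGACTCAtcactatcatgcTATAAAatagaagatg
Mmp7, first start site, chr9:7691990-7692089: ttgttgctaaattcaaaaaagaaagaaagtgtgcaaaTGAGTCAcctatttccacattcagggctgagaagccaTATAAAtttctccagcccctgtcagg
Mmp12, second start site, chr9:7347274-7347373: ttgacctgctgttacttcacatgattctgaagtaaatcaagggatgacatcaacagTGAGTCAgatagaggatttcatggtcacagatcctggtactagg
Plaur, chr7:24462383-24462482: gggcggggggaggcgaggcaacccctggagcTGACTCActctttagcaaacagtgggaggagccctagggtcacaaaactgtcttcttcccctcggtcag

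Counted from the start site, the AP-1 motif began at position -46 in Mmp3, -63 in Mmp10, -35 in Mmp13, -63 in Mmp7, -44 in Mmp12 and -69 in Plaur. It was thus present in 6 of 7 genes, where 1 start site of a gene was enough, and in 6 of their 9 promoters. Of 32851 mouse promoters 1.88% held it over the same 100 bases on both strands. A TATA box stood after it in Mmp3, Mmp10, Mmp13 and Mmp7, 4 of 7 genes and 4 of the 9 promoters, against 3.8% of all promoters on the gene's strand. The Tcf/Lef motif CTTTGAT was in none of the 9 promoters over those bases, and in 1.21% of all promoters. The promoter of Mmp14 held neither the AP-1 motif nor the TATA box in its 100 bases and is shown for contrast (chr14:54431498-54431597, plus strand).
Mmp14: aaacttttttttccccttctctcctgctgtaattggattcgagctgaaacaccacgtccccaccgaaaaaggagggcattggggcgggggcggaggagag

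A match of letters is not a measurement of binding. The motifs were chosen after the values were known. The first start site of Mmp12 and the second of Mmp7 held neither motif. Among the genes of AP-1 itself and of the Ets factors that often bind beside it, Fosb (-5.08), Fos (-3.73) and Jun (-2.82) were lower in tumours than in sorted cells in the mean of 5 organs, and Etv4 (1.17), Etv5 (1.03) and Elf3 (0.83) were higher. Of 12 listed AP-1 and Ets genes 10 passed the test, 3 higher and 7 lower in tumours. Of all genes 65.8% passed in that mean, 39% higher and 26.8% lower. Fos, Fosb and Jun are also on the dissociation list.

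The first comparison asked which of these genes differ between Prom1-positive and Prom1-negative cells of a normal tissue. Mmp2 and Mmp3 were lower and Mmp7 was higher in the Prom1-positive cells in the mean of 6 tissues, and single tissues differed: 3 genes were lower in prostate, Mmp14 was higher in stomach, and in uterus Mmp2 and Mmp3 were lower and Mmp7 higher. None of the 9 passed the test in lung, intestine or liver. Plau, Plaur, Mmp10 and Mmp13 passed in no tissue. In a fit with samples of consecutive codes as a block, a pairing that the labels do not state, Mmp14 in liver (-0.91, adjusted p = 0.0218) and Mmp13 in prostate (-1.83, 0.0238) were also called, and Plau again in no tissue. The 3 of 9 genes called in the mean of 6 tissues compare with 13.6% of 14081 genes tested, and the median difference of the 9 was -0.02 against 0.02 for all genes.

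**Figure D2:**
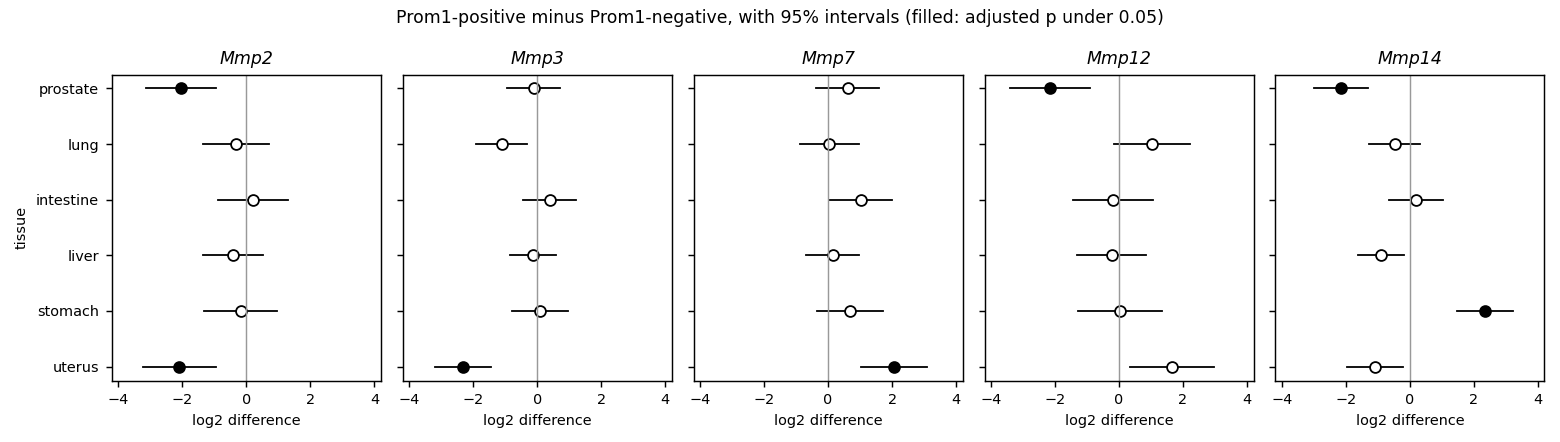
Difference between Prom1-positive and Prom1-negative samples (log2, horizontal axis) in 6 tissues for Mmp2, Mmp3, Mmp7, Mmp12 and Mmp14, with 95% intervals; filled points have an adjusted p below 0.05. Mmp14 lies on opposite sides of 0 in prostate (-2.16) and stomach (2.34), and the filled points of Mmp2 are both below 0.

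Prostate had 3 of 9 genes called, all lower in Prom1-positive cells, against 9.19% of all genes called and 5.98% called lower. Mmp14 read 8.30, 6.34 and 6.71 in the positive samples and 8.57, 9.82, 9.09, 9.35 and 9.57 in the negative ones. The groups did not overlap, and the difference was -2.16 (SE 0.42, adjusted p = 0.000238), a level 4.48-fold lower. Mmp2 read 9.17, 6.21 and 6.25 against 8.37, 9.79, 9.10, 9.77 and 9.22. Positive sample 1 stood within the negative range and the other two were far below it. The difference was -2.04 (SE 0.54, adjusted p = 0.00997), but the adjusted p was 0.177 without positive sample 2, 0.127 without positive sample 3 and 0.0663 in a fit of prostate alone. Mmp12 read 6.82, 6.24 and 3.79 against 7.30 to 8.19, a difference of -2.16 (SE 0.62, adjusted p = 0.019) that rests on positive sample 3, since without it the value was -1.25 (adjusted p = 0.31). It was also lost when the arrays were quantile normalised again (adjusted p = 0.0663) and with the spread estimated over all 117 arrays (0.127).

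Fibroblast markers moved with these genes. Of 10 listed, such as Pdgfra, Dcn and Col1a1, 6 were lower in Prom1-positive prostate and none higher, with a median difference of -2.11. The list averaged 5.29 to 7.03 in the positive and 7.42 to 8.87 in the negative samples. Of 10 macrophage markers 2 were called higher in prostate, Csf1r by 1.61 and Mrc1 by 2.51, which gives no direction for the whole list. The part of either cell type in the differences of Mmp2, Mmp14 and Mmp12 was not tested.

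Uterus also had 3 of 9 genes called, against 10.9% of all genes. Mmp2 read 8.45, 9.37, 9.69 and 9.35 in the positive samples and 11.37, 11.24 and 11.33 in the negative ones, with no overlap and a difference of -2.10 (SE 0.57, adjusted p = 0.00925). Mmp3 read 4.85, 5.0, 5.86 and 5.51 against 7.17, 7.74 and 7.92. Here too the groups lay apart, by -2.31 (SE 0.43, adjusted p = 0.000173). Mmp7 ran the other way, with 8.76, 10.19, 8.99 and 7.37 against 7.34, 7.10 and 5.89. Its lowest positive sample was just above its highest negative one, and the difference was 2.05 (SE 0.51, adjusted p = 0.00456), or 0.061 without negative sample 3. When the spread was estimated over all 117 arrays, including the tumours, the adjusted p of Mmp3 became 0.0766 and that of Mmp7 0.201.

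In the same uterus samples 6 of 10 fibroblast markers were lower and 8 of 10 macrophage markers higher in Prom1-positive cells. The macrophage list averaged 10.95 to 11.36 in the positive samples and 7.63 to 8.29 in the negative ones. Mmp12, the macrophage elastase, read 5.86, 5.88, 6.6 and 7.37 against 5.25, 5.10 and 4.0 without overlap, yet its difference of 1.64 did not pass the test (adjusted p = 0.106). It passed in a fit of uterus alone (0.0213), as did Mmp14, at -1.09 (0.107 in the fit of all tissues, 0.00171 in uterus alone). Both passed with the block by consecutive codes too (0.0274 and 0.0212).

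In stomach 1 of 9 genes was called, against 3.17% of all genes called and 2.29% called higher. Mmp14 read 7.22, 7.47 and 7.68 in the positive samples and 4.21, 4.60, 5.62 and 6.01 in the negative ones, a gap with no overlap and a difference of 2.34 (SE 0.44, adjusted p = 0.000471), or 5.08-fold. This call depends on the probe set. A second Mmp14 probe set, which correlated with the first at r = 0.856 over 117 arrays, gave 0.66 (SE 0.37, adjusted p = 0.381) in stomach and -1.26 (SE 0.35, adjusted p = 0.0184) in prostate. The stomach call was also lost in a fit of stomach alone (adjusted p = 0.358). Without the 6 arrays of low upper quartile the difference was 1.94, with only Prom1-positive sample 1 left to set against the negative samples. No fibroblast marker passed the test in stomach, and 1 of 10 macrophage markers, Lyz2, was higher (2.65).

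For lung the background was 1.51% of genes, for intestine 0.199% and for liver 20.7%, with 0 of 9 genes called in each. Mmp3 in lung read 3.82, 7.09 and 4.45 in positive samples against a range of 4.98 to 7.41 in negative ones, a difference of -1.12 that passed the test only without positive sample 2 (-2.10, adjusted p = 0.000504). In liver Plaur was at -0.75 (adjusted p = 0.263) with all samples and at -1.47 (0.00608) without positive sample 2. Mmp14 was at -0.89 (adjusted p = 0.0705) with all samples, at -1.26 (0.0077) without positive sample 2 and at -1.0 (0.0482) without negative sample 5. Both genes were also called with array weights and without the arrays of low upper quartile. A p that misses the threshold in a single tissue does not show that the fractions are alike.

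In the mean of 6 tissues Mmp2 differed by -0.80 (SE 0.22, adjusted p = 0.00947), Mmp3 by -0.53 (SE 0.17, adjusted p = 0.0261) and Mmp7 by 0.76 (SE 0.20, adjusted p = 0.00647). The call of Mmp3 was lost without lung positive sample 1 (adjusted p = 0.0544) or 4 (0.0579), with array weights (-0.28, 0.155), without the 6 arrays of low upper quartile (-0.42, 0.119) and with the spread estimated over all 117 arrays (0.291). That of Mmp7 was lost without the same 6 arrays (0.48, adjusted p = 0.111) and with the spread estimated over all 117 arrays (0.158). For Plau the difference was 0.08 with a 95% interval from -0.25 to 0.41, and for Plaur -0.05 with an interval from -0.47 to 0.38. The size of the sort difference itself varied among tissues for 3 of 9 genes, against 21.2% of all genes: Mmp14 (adjusted p = 8.33e-06), Mmp3 (0.00455) and Mmp12 (0.0179).

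Genes listed as inhibitors were lower in the Prom1-positive cells as well. Of 7 measured 4 were lower in the mean of 6 tissues and none higher, against 8.56% of all genes called lower. Timp3 was at -1.32, Tfpi2 at -1.12 and Reck at -1.06. In prostate 5 of the 7 were lower, against 5.98% of all genes, led by Tfpi2 (-4.61), Reck (-2.31) and Timp3 (-2.18). In uterus 5 of the 7 were lower, against 5.64% of all genes, led by Reck (-2.72), Spock2 (-2.29) and Timp3 (-1.97). Reck encodes a membrane-anchored inhibitor and Tfpi2 an inhibitor of plasmin. Spock2, counted in all 3 of these, encodes testican-2, which is known to offset inhibition by other testicans rather than to inhibit. Of 19 regulators of urokinase and plasmin 6 passed in the mean of 6 tissues, against 13.6% of all genes. Hpn (1.08) and Serpinb8 (1.07) were higher. Itgb3 (-0.93), Plat (-0.85), which encodes the tissue-type activator, Mrc2 (-0.70) and Lrp1 (-0.49) were lower. In prostate Plat was lower by a log2 difference of -3.76, the largest fall of that list. Of 12 matrix substrates 9 were lower and none higher in the mean of 6 tissues, against 8.56% of all genes called lower. In the same comparison 9 of 10 fibroblast markers were lower, with a median of -1.10, and the part of that cell type was not tested.

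The next comparison set each tumour type against the mean of both sorted groups of its organ. Most of the 9 genes were higher in tumours: in the mean of 5 organs 7 rose, led by Mmp12 and Mmp13, Plau fell, and Mmp7 did not pass the test. The organs did not behave alike. All 9 genes rose in gastric adenocarcinoma, 5 of 9 rose in hepatocellular carcinoma, and 5 of 9 fell in bronchial papillary adenoma. The difference between tumours and sorted cells varied among organs for 9 of 9 genes, against 77.9% of all genes, with adjusted p from 3.78e-21 for Mmp2 to 0.00188 for Mmp12.

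**Figure D3:**
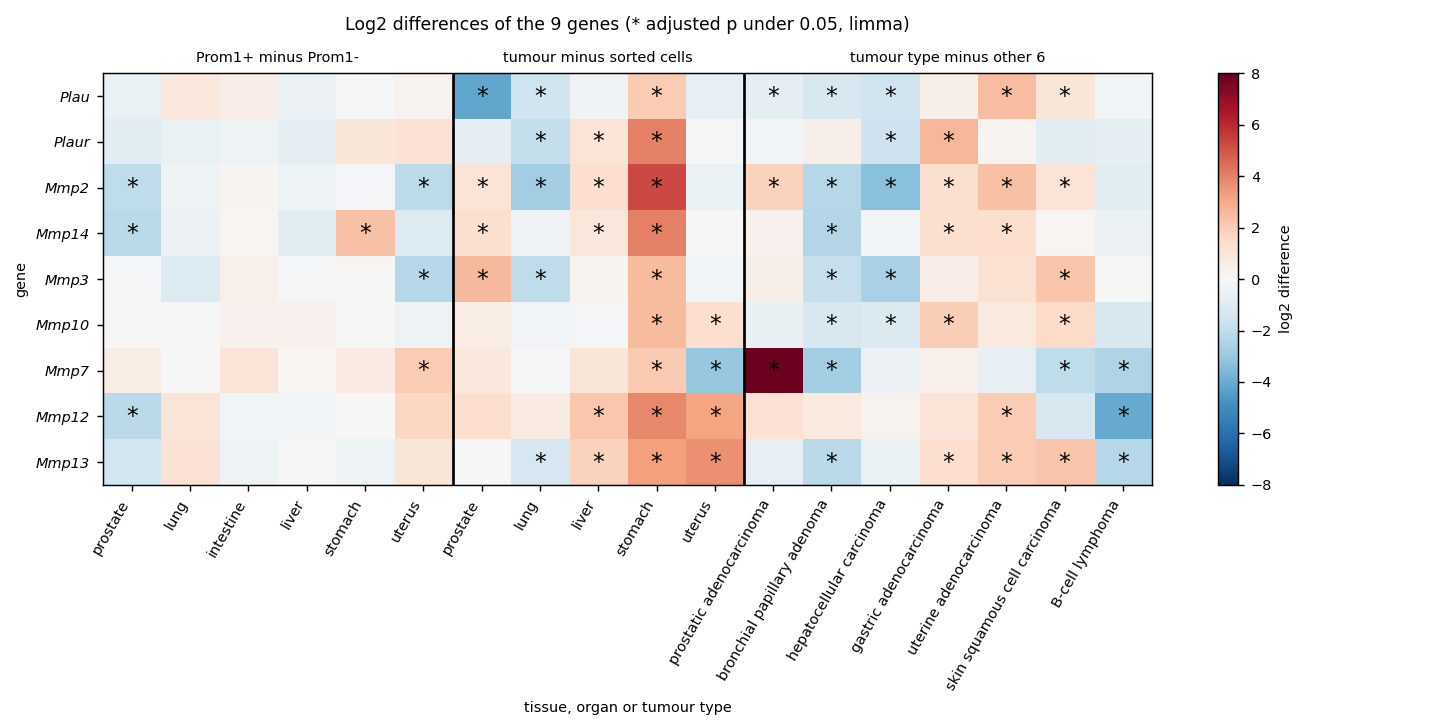
Log2 differences of the 9 genes (rows) in the 18 single comparisons (columns: the Prom1 sort in 6 tissues, tumour against sorted cells in 5 organs, each of 7 tumour types against the other 6), on a colour scale from -8 to 8, with an asterisk where the adjusted p is below 0.05. The stomach column of the tumour block is positive for all 9 genes, the lung column holds no called rise, and the darkest cell is Mmp7 in prostatic adenocarcinoma at 7.84.

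In the mean of 5 organs 8 of 9 genes were called, against 65.8% of 14663 genes. Of all genes 39% were called higher and 26.8% lower. The median difference of the 9 was 0.80 against 0.08 for all genes. Mmp12 rose by 2.23 (SE 0.26, adjusted p = 1.66e-12), Mmp13 by 1.48 (SE 0.27, adjusted p = 1.42e-06) and Mmp14 by 1.2 (SE 0.13, adjusted p = 4.64e-14). Smaller rises were those of Mmp2 (0.88), Mmp10 (0.80), Mmp3 (0.61) and Plaur (0.46). The means of Mmp2 and Plaur join their largest rise, in stomach, with a fall in lung. That of Plau joins falls in prostate and lung with a rise in stomach. Against the Prom1-negative cells alone Mmp2 was at 0.38 (adjusted p = 0.138) and Mmp3 at 0.26 (0.442). Against the Prom1-positive cells alone Plaur was at 0.46 (0.0734), and its call was also lost when the arrays were quantile normalised again (0.30, adjusted p = 0.115). Plaur was called in 8 of 11 other settings. Plau fell by 0.94 (SE 0.16, adjusted p = 3.23e-07), or by 0.44 (adjusted p = 0.00698) on its second probe set, and Mmp7 was at 0.15 with a 95% interval from -0.37 to 0.68.

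Stomach showed the broadest change, with 9 of 9 genes higher in gastric adenocarcinoma, against 58.1% of all genes called and 35% called higher; the median difference of the 9 was 3.25. Mmp2 read 2.70, 4.21 and 3.45 in Prom1-positive and 2.77, 3.12, 3.84 and 4.76 in Prom1-negative stomach. In the 11 tumours it ran from 7.17 to 10.10 with a median of 9.03. No tumour came near the sorted cells, and the difference was 5.30 (SE 0.44, adjusted p = 2.76e-19), or 39.5-fold; 4 of the 7 sorted samples were dim, so the ratio may understate the difference. Mmp14 (4.01, SE 0.30, adjusted p = 4.91e-22) and Plaur (4.02, SE 0.39, adjusted p = 6.62e-16) were 16.1-fold and 16.3-fold higher, also without overlap. Plaur read 6.58, 6.08 and 6.09 in the positive, 3.67, 5.36, 6.40 and 5.67 in the negative and 9.23 or more in every tumour. The second Mmp14 probe set gave 2.42 (adjusted p = 1.94e-10). Plau rose by 2.02 on this probe set and by 0.77 (adjusted p = 0.0469) on its second one.

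The other gastric rises were those of Mmp12 (3.82, without overlap), Mmp13 (3.25), Mmp3 (2.52), Mmp10 (2.51) and Mmp7 (2.10). Mmp10 was near the floor in all 7 sorted stomach samples, none above 4.25, and read 3.80 to 9.70 in the tumours, with tumours 10 (9.70), 11 (9.39) and 6 (7.90) highest. Mmp7 was uneven, with 4 of 11 tumours dim and tumour 11 at 9.80. It was called in 10 of 12 other settings (adjusted p up to 0.074), and not in a fit of stomach samples alone (adjusted p = 0.0594). In gastric tumours 8 of 10 fibroblast markers were higher (median 3.35) and 10 of 10 macrophage markers were higher (median 4.15). The fibroblast list averaged 6.6 to 7.86 in tumours and 3.43 to 5.66 in sorted stomach, and the macrophage list 7.0 to 9.47 and 3.32 to 5.27. The stomach epithelium list was lower in the tumours (3.50, median 7.54, highest 10.44) than in sorted stomach, and the part of these cell types was not tested.

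Of all genes 35% were called higher and 23% lower in gastric tumours. Among the partners of the 9 genes, 5 of 7 inhibitors were higher and none lower, with Timp1 at 5.31, Timp3 at 5.15 and Timp2 at 4.45. Of 19 urokinase and plasmin regulators 9 were higher and 5 lower. Plat rose by 6.85, the integrin gene Itgb1 by 3.03 and Itgb3 by 2.31, while St14 (-2.27), Vtn (-1.93) and Serpinf2 (-1.72) fell. St14 encodes matriptase, an epithelial serine protease, and Serpinf2 the plasmin inhibitor antiplasmin. Of 12 matrix substrates 11 were higher, with a median of 5.11.

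Prostate had 4 of 9 genes called, 3 higher and 1 lower, against 36.7% of all genes. Plau lay between 3.93 and 5.10 in the 10 tumours, with a median of 4.56, and no tumour reached the lowest sorted sample at 7.61. The difference was -4.15 (SE 0.37, adjusted p = 3.61e-17), a 17.7-fold lower level, and the second Plau probe set gave -2.97 (adjusted p = 6.52e-12). Mmp3 was dim in all 8 sorted samples and above the array median in 9 of 10 tumours, where it ran from 3.46 to 7.79; the difference was 2.60 (SE 0.55, adjusted p = 6.83e-05), without overlap. Mmp14 rose by 1.29 (adjusted p = 0.000238) and Mmp2 by 1.08 (adjusted p = 0.0436). Both depended on the reference, since against Prom1-negative prostate alone they were at 0.21 (adjusted p = 0.692) and 0.06 (0.955). Mmp2 also lost its call in 9 of 18 fits with 1 sample left out (0.83 to 1.57, adjusted p up to 0.176), in a fit of prostate alone (0.0928), with repeated quantile normalisation (0.0666) and after adjustment for array upper quartile (0.13). Mmp12, at 1.33 (adjusted p = 0.0714), passed the test against Prom1-positive prostate alone (2.41, adjusted p = 0.0214) and was at 0.25 (0.831) against Prom1-negative prostate alone. Mmp7 read 12.15 to 12.88 in 9 of 10 tumours, above every sorted prostate sample (10.38 to 11.98). Tumour 10, the exception at 8.77, was 1 of the 2 tumours with high prostate epithelium markers. With all 10 tumours the difference of 0.83 did not pass the test (adjusted p = 0.299), and with array weights it did (1.24, adjusted p = 0.0133).

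The dissociation response genes moved with Plau in prostate, where 11 of 12 were lower in the tumours, against 15.8% of all genes. Their list averaged 10.54 to 11.91 in the sorted samples and 6.82 to 8.71 in the tumours. The part of this response in the level of Plau was not tested. Prostatic tumours had Timp1 (3.43) and A2m (3.03) higher and Spock2 (-2.32), Reck (-1.80) and Tfpi2 (-1.09) lower among the 7 genes of the inhibitor list. Mmp20, the neighbour of Mmp7 in the chromosome 9 cluster and best known as the enamel protease of teeth, averaged 4.84 ± 0.80 in the 10 prostatic adenocarcinomas. It was at 2.40 to 2.78 in the mean of each other group. It rose by 2.23 against sorted prostate (adjusted p = 8.15e-26) and was the only 1 of 9 other metalloproteinases called there.

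In lung 5 of the 9 genes were lower in bronchial papillary adenoma and none higher, against 43.1% of all genes called and 19.7% called lower. Mmp2 ran from 4.71 to 7.03 in the 14 adenomas (median 5.68), and sorted lung from 7.38 to 9.88. The adenomas thus lay below every sorted sample, by -2.79 (SE 0.39, adjusted p = 2.91e-09). Plaur fell by 1.91 (adjusted p = 2.61e-06), with adenomas from 6.69 to 8.80 and no overlap with the sorted samples, of which the lowest read 9.22. Mmp3 fell by 2.05, or was at -1.49 (adjusted p = 0.113) against Prom1-positive lung alone. Plau fell by 1.61, and the second Plau probe set gave -0.47 (adjusted p = 0.245). Mmp13 was at -1.37 (adjusted p = 0.0421), and this rests on lung positive sample 2, at 7.83, since without it the value was -0.70 (adjusted p = 0.395). Leaving out 1 sample at a time ended the call for 13 samples, that one included. Fibroblast markers fell in 8 of 10 genes, with a list mean of 4.65 to 5.83 in adenomas and 6.02 to 8.35 in sorted lung. Hpn (3.27) and St14 (4.17), which encode membrane serine proteases of epithelial cells, rose, and Serpinb2 (-3.13), Plat (-1.85) and Vtn (-1.80) fell.

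In hepatocellular carcinoma 5 of 9 genes were higher and none lower, against 47.2% of all genes called and 29.2% called higher. Mmp12 rose by 2.18 (SE 0.52, adjusted p = 0.000283), Mmp13 by 1.86 (SE 0.54, adjusted p = 0.003) and Mmp2 by 1.33 (SE 0.38, adjusted p = 0.00226). The 13 carcinomas ran from 4.86 to 9.96 in Mmp12 and the 11 sorted liver samples from 3.78 to 7.03, so the groups overlapped. Of 10 macrophage markers 6 were lower and 1 higher in the same comparison, and the part of macrophages in the level of Mmp12 was not tested. Plaur (1.03) and Mmp14 (0.94) were called against the mean of both fractions but not against Prom1-negative liver alone (0.66, adjusted p = 0.159, and 0.49, adjusted p = 0.173). The second Mmp14 probe set gave 0.52 (adjusted p = 0.114). The inhibitor gene A2m (2.91) and Timp1 (2.28) rose, and so did Plat (4.34), the largest rise among 19 urokinase and plasmin regulators.

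In uterus 4 of 9 genes were called, 3 higher and 1 lower, against 28.8% of all genes. Mmp13 was dim in 6 of 7 sorted samples, none above 4.28, and ran from 4.54 to 9.41 in the 9 tumours, a difference of 3.64 (SE 0.66, adjusted p = 5.43e-06) without overlap. Mmp12 ran from 7.57 to 11.69 in tumours and from 4.0 to 7.37 in sorted uterus, again without overlap, and rose by 3.18 (SE 0.63, adjusted p = 3.24e-05). Mmp10 rose by 1.33 (adjusted p = 0.01), or 1.13 (adjusted p = 0.138) against the Prom1-negative cells. Mmp7 fell by 3.06 (SE 0.64, adjusted p = 8.98e-05), or by 2.03 (adjusted p = 0.072) against the Prom1-negative cells. Of 10 macrophage markers 3 were lower in the tumours. The part of macrophages or neutrophils in the level of Mmp12 was not tested. Of 8 neutrophil markers 6 were higher. The neutrophil collagenase gene Mmp8, itself on that list, rose by 2.57 and Timp1 by 3.17, while A2m (-4.05), Reck (-2.54) and Spock2 (-2.22) fell.

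The third comparison set each tumour type against the mean of the other 6. Mmp7 was high in the prostatic, Plaur in the gastric and Plau in the uterine adenocarcinomas, and Mmp3, Mmp10 and Mmp13 were high in the skin carcinomas. The bronchial adenomas were lower in 7 of 9 genes, against 34.1% of all genes. The hepatocellular carcinomas were lower in 5 of 9, against 41.3% of all genes called lower and 66.3% called in either direction. Over the 7 types 34 of 63 gene and type pairs were called, against 47.4% of all pairs.

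Prostatic adenocarcinoma had 3 of 9 genes called, against 41.8% of 13456 genes. Mmp7 was higher by 7.84 (SE 0.54, adjusted p = 3.09e-19) against other types in which many samples were dim. Its prostatic mean of 12.03 is part of the reference of every other type and raises it. The types called lower in Mmp7 below had means of 2.99 (bronchial), 3.27 (lymphoma) and 3.59 (skin). Uterine, hepatocellular and gastric means ran from 4.75 to 5.66. Mmp2 was higher by 1.84 (adjusted p = 1.53e-05) and Plau lower, at -0.77 (adjusted p = 0.0385), a call that was lost when any of 6 single tumours was left out. Gastric adenocarcinoma had 5 of 9 genes higher, against 47.9% of all genes called and 23.8% called higher. Plaur was higher by 2.67 (SE 0.28, adjusted p = 1.39e-11), 6.38-fold, and the lowest gastric tumour at 9.23 was above every other tumour. Mmp10 (1.97), Mmp13 (1.31), Mmp2 (1.30) and Mmp14 (1.26) followed; Mmp13 (adjusted p = 0.0255) lost its call without tumour 2, 10 or 11.

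Uterine adenocarcinoma had 5 of 9 genes higher, against 29.8% of all genes called and 17.3% called higher. Plau was higher by 2.45 (SE 0.32, adjusted p = 1.87e-08), Mmp2 by 2.35, Mmp12 by 2.05, Mmp13 by 2.03 and Mmp14 by 1.32. Without the 3 tumours that carried markers of another organ, Mmp3 (1.64, adjusted p = 0.0113; 1.2 and 0.0631 with them) and Mmp10 (1.0, adjusted p = 0.0477; 0.81 and 0.0934 with them) were also called. Mmp3 split this group, with 2.79, 3.48 and 3.85 in tumours 6, 4 and 8 and 6.26 or more in the other 6. Skin squamous cell carcinoma had 6 of 9 genes called, against 41.7%. Mmp3 was higher by 2.23 (adjusted p = 0.00195), Mmp13 by 2.21 (0.00403) and Mmp10 by 1.52 (0.0043). Mmp2 (1.08) and Plau (0.97) were also called, but each call was lost without 1 of several single samples, and the second Plau probe set gave 0.41 (adjusted p = 0.373). Mmp7 was lower, at -2.00.

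Keratinocyte and basal cell markers, of which 11 of 12 were measured, averaged 9.26 to 11.82 in the skin carcinomas and 4.36 to 8.48 in the uterine ones, and under 6 in every other tumour. In the gastric adenocarcinomas the same list averaged 3.28 to 4.14. The part of keratinocytes and basal cells in the levels of Mmp3, Mmp10 and Mmp13 was not tested in any tumour type. Serpinb2, the plasminogen activator inhibitor of macrophages and keratinocytes, averaged 10.12 in the skin carcinomas and 6.69 in the uterine ones, and from 2.79 to 4.28 in the other types.

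Bronchial papillary adenoma had 7 of 9 genes lower, against 58.1% of all genes called and 34.1% called lower. Mmp7 was at -2.71, Mmp14 at -2.36 (adjusted p = 3.73e-16), Mmp2 at -2.29 and Mmp13 at -2.14, while Mmp12, at 0.77, and Plaur, at 0.49, did not pass the test. Hepatocellular carcinoma had 5 of 9 lower, against 66.3% of all genes called and 41.3% called lower, with Mmp2 at -3.35 (adjusted p = 1.5e-14) and Mmp3 at -2.62. The B-cell lymphomas had 3 of 9 lower, against 46.6% called and 22.3% called lower. Mmp12, at 3.24, 3.71 and 3.78, lay below every other tumour, the lowest of which read 3.97, with a difference of -4.03 (SE 0.84, adjusted p = 7.12e-05). These values lie at or near the array medians of 3.71 to 3.75, so the level in the lymphomas may be background and no ratio is given. The macrophage marker list averaged 8.95 to 9.40 in the same 3 lymphomas, with 6 of 10 of its genes higher and 1 lower than in the other types. The part of macrophages in the level of Mmp12 was not tested. Mmp7 (-2.38) and Mmp13 (-2.25) lost their calls without lymphoma 1 or 2.

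Within tumour types 3 pairs of genes were compared across samples in 6 types of at least 6 tumours, 18 relations in all. The pairs were Plau with its receptor Plaur, Mmp14 with its substrate Mmp2, and the stromelysins Mmp3 and Mmp10. Their p-values came from permutations and were adjusted over the 18. Mmp14 and Mmp2 rose together over the 10 prostatic adenocarcinomas (r = 0.891, permutation p = 0.00074, adjusted p = 0.0133; Spearman rho = 0.927, adjusted p = 0.0072). Without the 2 tumours farthest from the median of Mmp14 r was 0.80. Over the 6 types the r of this pair ran from -0.11 to 0.89. Plau and its receptor Plaur were related over the 9 uterine adenocarcinomas (r = 0.849, exact permutation p = 0.00514, adjusted p = 0.0462), but the adjusted p of rho (0.85) was 0.0547. Over the 6 types the r of Plau with Plaur ran from 0.0069 to 0.85, and 1 type passed. Without uterine tumour 6, which carried hepatocyte markers, r was 0.858 over 8 tumours and the adjusted p 0.0906. Without the 2 tumours farthest from the median of Plau r was 0.896. Mmp3 and Mmp10 had r from 0.02 to 0.63 and passed in no type. The labels name no batch within a tumour type, and the part of stromal content in these relations was not tested.

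**Figure D4:**
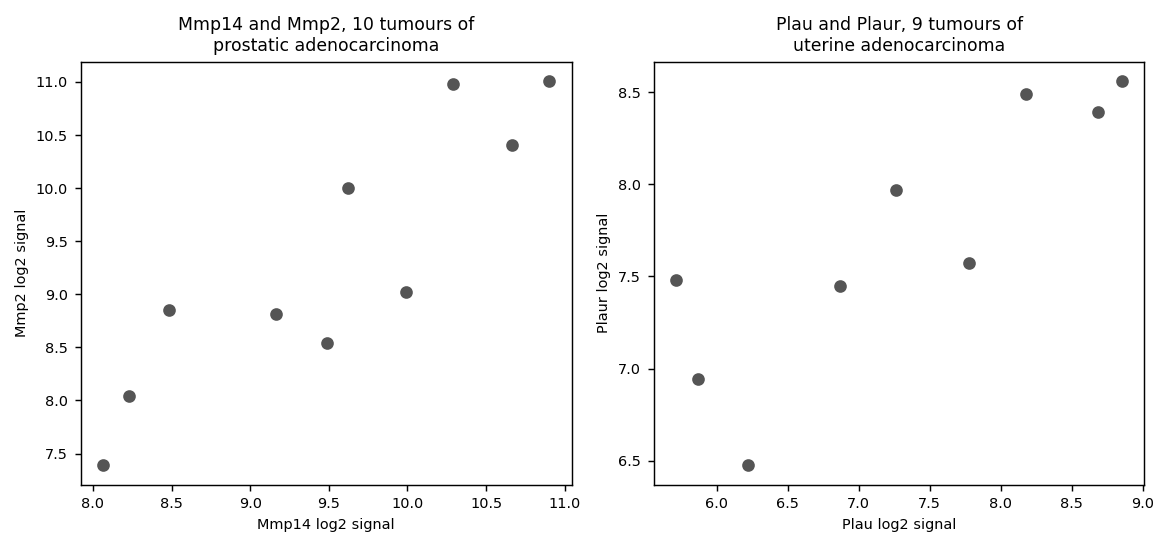
Left, Mmp14 (horizontal axis) against Mmp2 in the 10 prostatic adenocarcinomas; right, Plau against Plaur in the 9 uterine adenocarcinomas, all as log2 signal with 1 point a tumour. Both clouds run from lower left to upper right, with r = 0.891 and r = 0.849.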

How the data were processed

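RNA of 117 samples was hybridised to single-colour Affymetrix arrays, and the authors deposited log2 signals, 1 value for each probe set. Per the submitters' processing notes they were made with RMA, which corrects background, normalises arrays to one another and summarises probes, in Partek 6.6. Its settings and any batch correction are not given in the sources used here. Values were used as deposited. Precision is set by how many arrays a group has.

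Of 45141 probe sets 28898 had 1 gene symbol, 551 several and 15692 none, and only those with 1 were used. Symbols were updated with a RefSeq gene table (GRCm38.p6). A gene was tested where its signal was above the array median in at least 3 arrays of the fit. Differences were tested two-sided with limma 3.58.1 in R 4.3.3 (lmFit on group means, eBayes), adjusted after Benjamini-Hochberg over all genes of a contrast, with a threshold of 0.05. The sorted samples, all samples and the tumours were 3 separate fits with 14081, 14663 and 13456 genes. The scripts were also run on simulated arrays with 200 genes shifted by a log2 change of 1. Of these, the sort in single tissues recovered 9.5% (uterus) to 31.5% (liver), and its mean of 6 tissues 91%. Tumours against sorted cells recovered 56.5% (uterus) to 74.5% (lung), and the tumour types 43.5% (lymphoma) to 90% (bronchial). With 1 tissue changed, the test for sort differences among tissues recovered 0%. Changes of that size in single tissues would thus mostly be missed. Correlations used Python 3.11.15 and SciPy 1.17.1, with exact permutations or 100000 resamples.

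All 9 genes are named in every comparison, with at most 3 rises and 3 falls of a called list, and the 3 genes of most similar group means. The genes and the 22 lists (191 of 220 entries measured) were chosen with earlier results of these data known. Alternatives covered probe sets, filters, normalisation, array quality, array weights, the choice of samples and of normal reference, a replicate block and leaving out each sample. Leaving out the 3 tumours with markers of another organ, where a list mean above 8 met a group median under 6, was chosen after seeing the data. The labels do not say whether title numbers pair the samples. Of 19 same-numbered pairs 7 correlated above 0.1 after group means were removed (r from -0.34 to 0.59). Of 13 pairs of fractions of a tissue with consecutive sample codes 10 did (r from -0.09 to 0.49). The labels do not say what the codes mean and not every pair correlated, so a random block on these pairs (duplicateCorrelation, correlation 0.379), chosen after seeing the data, is an alternative.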

Additional observations from a re-analysis of the deposited data

Results flagged for a closer look

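Among 90 checks of the highest and lowest sample in groups of 4 to 10, 8 samples stood apart by Dixon's criterion, where chance gives about 1 in 20. For Mmp7 these were prostatic adenocarcinoma 10 at 8.77, with the nearest of the other tumours at 12.15, Prom1-positive liver sample 2 at 5.20 (nearest 3.62), and Prom1-negative stomach sample 1 at 3.69 (nearest 3.13). For the urokinase genes they were Plau in Prom1-negative liver sample 4 at 4.99 (nearest 4.42) and Plaur in Prom1-positive uterus sample 1 at 9.18 (nearest 8.24). Mmp12 reached 11.69 in uterine adenocarcinoma 5 (nearest 9.60), Mmp13 reached 5.30 in Prom1-negative intestine sample 4 (nearest 3.13), and Mmp14 reached 10.46 in skin squamous cell carcinoma 3 (nearest 9.40).

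The difference between Prom1-positive and Prom1-negative cells varied among the 6 tissues for Mmp14 (limma F test, adjusted p = 8.33e-06), Mmp3 (0.00455) and Mmp12 (0.0179). The difference between tumours and sorted cells varied among the 5 organs for each of the 9 genes. The adjusted p was 2.65e-17 for Plau, 3.6e-17 for Plaur, 3.78e-21 for Mmp2, 1.84e-08 for Mmp3, 3.91e-06 for Mmp7, 9.73e-06 for Mmp10, 0.00188 for Mmp12, 1.28e-07 for Mmp13 and 2.32e-16 for Mmp14.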

How the results depend on the processing

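Recomputed were 2385 values under other settings and 9288 with 1 sample left out. Both totals include F tests, which have no sign. No signed difference among them changed its sign while called. Under other settings 2278 kept their side of the threshold, 45 lost the call and 62 gained it, and with 1 sample left out these numbers were 9178, 50 and 60. The Prom1 sort was the least stable. Its 7 gene and tissue pairs became 14 with array weights, 11 with the replicate block by consecutive codes and 4 with all 117 samples in the fit. Its 3 genes in the mean of 6 tissues became 1 with all samples in the fit, 1 without the arrays of low upper quartile and 1 with the replicate block by title number. The 3 genes whose sort difference varied among tissues became 6 without those arrays, 9 with array weights, 7 with the block by codes, 1 with all samples and 1 with the block by title number. The cause was not tested. With the title numbers as a block the adjusted p became 0.121 for Mmp2 and 0.21 for Mmp3 in the mean of 6 tissues, and 0.13 for Mmp2 and 0.181 for Mmp12 in prostate. The labels do not say whether title numbers pair the samples, so the meaning of a call lost under that block cannot be told.

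With 1 sample left out, the pairs called ran from 5 to 9 for the sort, 26 to 28 for tumours against sorted cells and 31 to 37 for the tumour types. The genes called ran from 2 to 3 in the mean of 6 tissues, 2 to 5 for differences of the sort among tissues (5 without prostate Prom1-positive sample 1 or liver Prom1-positive sample 2), 8 to 8 among normal tissues and in the mean of 5 organs, and 9 to 9 among organs and among tumour types. Of 18 correlations 2 passed by Pearson, 1 by Spearman and 1 without the tumours that carry markers of another organ.

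Over all genes, the 1917 genes called in the sort mean became 694 with the block by title number, 2861 with that by codes, 3447 with the upper quartile as a covariate and 5612 with array weights. The 2982 genes whose sort difference varied among tissues became 1110 with the block by title number, 4826 with that by codes, 5244 without low arrays and 8696 with weights, and the 6436 sort pairs became 3438, 9753, 9997 and 16920. Signal near background limits Mmp3, Mmp10 and Mmp13 in most sorted groups.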

Other observations

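Some partners of these genes, not described above, separated the tumour types. Timp1 was higher than in the mean of the other 6 types in prostatic (2.44), gastric (2.52) and uterine adenocarcinomas (2.92). It was lower in bronchial papillary adenomas (-2.43), hepatocellular carcinomas (-2.39) and lymphomas (-2.68). Tfpi2 was highest relative to the other types in hepatocellular carcinoma (3.29) and Spock2 in bronchial papillary adenoma (2.69). Among the other metalloproteinases, the gelatinase gene Mmp9 was higher in uterine adenocarcinoma (1.96) and Mmp11, known from tumour stroma, in bronchial papillary adenoma (1.83). All of these passed limma's test at an adjusted p below 0.05.

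In the B-cell lymphomas 15 of 19 regulators of urokinase and plasmin were lower than in the other types, against 22.3% of all genes. Only 1, Plgrkt, was higher (0.95), against 24.3% of all genes. Among these regulators the largest falls were those of Plat (-3.63), Anxa2 (-2.56) and Serpinb2 (-2.33).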
